A study of Mus musculus with 68 samples.

Results

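The genes described here are the mouse transcription factor genes Six2, Six4 and Six5, the genes Eya1, Eya2, Eya3 and Eya4 of their coactivators, and the related cofactor gene Dach1. They were chosen by name, as the entries of the deposited expression table whose Ensembl identifiers map to these symbols, and all 8 genes were found among the 21948 in the table. Polyadenylated RNA of pharyngeal arch 1 (PA1, which forms the jaws) and pharyngeal arch 2 (PA2, which forms the stapes, the styloid process and part of the hyoid) was sequenced from mouse embryos of the CBA/Ca/J x C57BL/10 background. The embryos were labelled either wildtype or Hoxa2-/-, and were taken at 4 stages, E9.0 and E9.5 followed by E10.0 and E10.5. Each library came from 1 arch of 1 embryo, and the arches of an embryo carry its number, so the replicates are separate embryos. The wildtype PA1 groups held 5, 5, 5 and 3 libraries in stage order, and the wildtype PA2 groups held 4, 4, 5 and 3. The groups labelled Hoxa2-/- held 4, 5, 5 and 3 libraries in each arch. The labels name no Cre, transgene, treatment or other allele for any group, and they do not say how the Hoxa2 allele was made or which part of the gene it lacks. The libraries were made from whole dissected arches, in which neural crest mesenchyme lies with mesoderm, endothelium, epithelium and blood, so a lower value can reflect fewer cells of a type or less RNA per cell, and these cannot be told apart.

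Six2 and its relatives bind DNA through a homeodomain beside a domain shared by their family. Eya proteins bind no DNA but join these proteins on their targets as coactivators and carry a phosphatase activity, and Dach1, a relative of the Ski corepressors, can turn the same complexes into repressors. With Pax genes they form a network that was first described in the fly eye and that in vertebrates acts in the pharyngeal arches and pouches, the ear, the cranial placodes, muscle and kidney. Loss of Eya1 in mice and people affects the ear and other derivatives of the arches, and Six2 is known as a gene that Hoxa2 represses in PA2.

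The 68 libraries held 8912251 to 20619153 reads assigned to genes, and values are given as deposited, in CPM, read counts scaled to the size of each library. At these depths 3 reads correspond to 0.14 to 0.328 CPM, and every member was above 1 CPM in all 68 libraries. Each comparison was tested with limma on log2(CPM + 1) over the 18428 genes with at least 1 CPM in at least 3 libraries, and a gene was called at a Benjamini-Hochberg adjusted p under 0.05. Differences are on this log2(CPM + 1) scale, on which changes of genes of low CPM such as Eya4 come out too small, and each standard error (SE) comes from the same fit.

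The gene named by the label went against it. In PA2, Hoxa2 was at 22.3 ± 1.40 CPM in wildtype and 28.7 ± 8.41 CPM in the embryos labelled Hoxa2-/- at E9.0 (SD, n = 4 each). At E10.5 it was at 58.3 ± 4.52 CPM in wildtype and 132 ± 15.8 CPM in those labelled Hoxa2-/- (SD, n = 3 each). In PA1 Hoxa2 was low under both labels. At E10.5 it was there at 0.519 ± 0.44 CPM in wildtype and 0.377 ± 0.204 CPM in those labelled Hoxa2-/- (SD, n = 3 each), with overlap. A transcript can be made from a disrupted gene, the antisense gene Hoxaas2 lies beside it, and whether the counting used strand is not given in the sources used here. Every direction drawn from the label below is therefore a direction between libraries with these labels. The label also coincided with another division at 3 of the 4 stages. The 24 wildtype libraries of every stage but E10.0 differed from the other 44 without overlap in 17 genes that were higher and 2 that were lower. Among them was Ski, at 26.3 to 108 CPM against 9.52 to 15.5 CPM in wildtype libraries of E10.0 and 9.28 to 22.8 CPM in those labelled Hoxa2-/-. None of the 8 members was among these genes. At the stages other than E10.0 the label and this division cannot be told apart, whereas at E10.0 all libraries stood on the same side of it, and each test of PA2 against PA1 and of E10.5 against E9.0 lay within 1 side. Wildtype values of E10.0 beside those of other wildtype stages cross it.

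The markers of arch neural crest mesenchyme were all present (7 of 7, and none at 0 in any library). PA2 differed from PA1 in the markers of other tissues as well. At E9.0 in wildtype, the summed mesenchyme markers ranged from 553 to 631.1 CPM in PA1 and from 347.1 to 411.4 CPM in PA2. Heart muscle markers (4 of 5 in the table, with Myl2 and Tnnt2 at 0 in at least 1 library) ranged from 7.79 to 17.3 CPM in wildtype PA1 and from 18.4 to 591 CPM in wildtype PA2 at E9.0. By E10.5 the wildtype mesenchyme sums overlapped between the arches, at 653.1 to 761.9 CPM in PA1 and 619.3 to 707.5 CPM in PA2. Other lists were apart at that stage. The summed otic epithelium markers (3 of 5 in the table, with Fbxo2 and Pax8 at 0 in at least 1 library) ranged from 37.9 to 46.3 CPM in wildtype PA1 and from 71.9 to 110.6 CPM in PA2. None of the 3 genes was called there, with a list median of 0.22. At E9.0 the otic sums overlapped, at 24.0 to 40.8 CPM in wildtype PA1 and 34.9 to 53.0 CPM in PA2, as they did at E9.5. Somite and paraxial mesoderm markers (6 of 6, with Uncx at 0 in at least 1 library) ranged at E10.5 from 17.5 to 19.5 CPM in wildtype PA1 and from 39.8 to 53.2 CPM in PA2. There 2 of the 6 were called higher in PA2, beside 1.52% of all genes called. The list includes Pax1, named below among genes of the otic and pouch tissues, so its sum does not stand for paraxial mesoderm alone. Genes of the Six2 and Eya families are known to be expressed in otic epithelium and in paraxial mesoderm. The part of tissue composition in the differences between the arches below was not tested. In 3 libraries several values stood apart: the PA2 library of replicate 3 labelled Hoxa2-/- at E9.0, with 216.5 CPM of yolk sac markers against a median of 2.29 over all libraries; the PA2 library of replicate 4 labelled Hoxa2-/- at E9.5, with 102 CPM of Hoxa2; and the wildtype PA2 library of replicate 2 at E9.0, with 53790 CPM of red cell markers. Yolk sac markers were also high in 5 other libraries, among them PA2 of replicate 4 labelled Hoxa2-/- at E10.0 (201.3 CPM) and wildtype PA2 of replicate 3 at E10.0 (86.5 CPM). Calls that include 1 of the first 3 libraries are given with and without it, and calls lost without the 6 libraries rich in yolk sac transcripts are named.

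The members lie on 8 chromosomes of the GRCm38 assembly. Six2 (ENSMUSG00000024134) is at chr17:85684277-85688274 on the minus strand, Six4 (ENSMUSG00000034460) at chr12:73099609-73113456 on the minus strand and Six5 (ENSMUSG00000040841) at chr7:19094594-19098549 on the plus strand. Eya1 (ENSMUSG00000025932) is at chr1:14168954-14310235 on the minus strand, Eya2 (ENSMUSG00000017897) at chr2:165595032-165771727 on the plus strand, Eya3 (ENSMUSG00000028886) at chr4:132638987-132724765 on the plus strand and Eya4 (ENSMUSG00000010461) at chr10:23102963-23350786 on the minus strand. Dach1 (ENSMUSG00000055639) is at chr14:97786853-98169765 on the minus strand. No exon of another gene in the table overlapped an exon of a member, so reads of neighbours were not shared with them.

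RefSeq promoter sequences of GRCm38.p6, the 250 bases before the transcript start, were matched for 6 of the 8 members. They are shown for Six2, which was called between the arches in wildtype at E9.5, for Six4, which was lower in PA2 at E9.0, and for Eya4 and Dach1, which rose together in both arches. Capitals mark the homeodomain core TAAT (or ATTA on the other strand), present in 54.9% of 32817 promoters of this length, and the Meis motif TGACAG (or CTGTCA), present in 15.9%. The windows are chr17:85688255-85688504 for Six2, chr12:73113426-73113675 for Six4, chr10:23349944-23350193 for Eya4 and chr14:98169766-98170015 for Dach1, all on the minus strand and written 5′ to 3′.
Six2 promoter: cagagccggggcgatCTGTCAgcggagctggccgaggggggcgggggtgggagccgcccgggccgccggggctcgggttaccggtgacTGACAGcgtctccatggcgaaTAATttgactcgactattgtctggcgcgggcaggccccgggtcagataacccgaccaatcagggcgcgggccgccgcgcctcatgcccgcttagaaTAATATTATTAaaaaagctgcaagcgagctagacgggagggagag
Six4 promoter: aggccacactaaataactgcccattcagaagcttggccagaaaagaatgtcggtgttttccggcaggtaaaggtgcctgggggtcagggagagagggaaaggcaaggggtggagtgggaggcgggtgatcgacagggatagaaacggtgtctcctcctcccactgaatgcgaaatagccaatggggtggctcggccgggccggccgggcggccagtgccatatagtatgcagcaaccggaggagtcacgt
Eya4 promoter: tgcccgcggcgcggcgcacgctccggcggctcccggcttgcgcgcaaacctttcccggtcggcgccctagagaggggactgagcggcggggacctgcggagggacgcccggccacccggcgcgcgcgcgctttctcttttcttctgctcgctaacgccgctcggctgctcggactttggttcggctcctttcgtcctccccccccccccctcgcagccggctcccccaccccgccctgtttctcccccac
Dach1 promoter: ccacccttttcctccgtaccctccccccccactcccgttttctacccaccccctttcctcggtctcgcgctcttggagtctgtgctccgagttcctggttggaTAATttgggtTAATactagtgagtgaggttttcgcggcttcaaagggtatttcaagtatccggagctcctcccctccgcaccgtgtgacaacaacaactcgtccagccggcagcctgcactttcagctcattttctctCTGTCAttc
The Six2 window held 4 matches to the homeodomain core, of which those at 45, 41 and 38 bases before the start overlap or touch in 1 stretch, and 2 matches to the Meis motif. The Dach1 window held 2 and 1, the Six5 window 1 and 1, and the windows of Six4, Eya3 and Eya4 none. The motif TCAGGTT (or AACCTGA), to which the family of Six2 binds, present in 3.5% of promoters, was in none of the 6 windows. These are matches of letters in a short window and no measure of binding. The RefSeq starts are not always those of the gene positions given above. The Eya4 window lies wholly inside its gene position, and the windows of Six2, Six4 and Eya3 lie partly inside theirs. Sequence before the outermost start of Eya4 was not searched.

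Per kilobase of exon, the mean level over all libraries was 12.8 CPM for Eya1, 8.41 for Eya2, 7.59 for Eya3, 6.78 for Six2, 5.45 for Six4, 2.73 for Six5, 1.45 for Dach1 and 0.563 for Eya4. Eya1 was thus the most abundant member and Eya4 the least on this scale. Between single libraries Eya3 varied least, from 33.4 to 56.1 CPM with a median of 41.9, and Eya4 varied most, from 1.23 to 20.8 CPM with a median of 4.79. Of 26 comparisons between groups, Eya1 and Dach1 were each called in 8, Eya2 and Eya4 in 5, Six4 in 4, Six2 in 3, Six5 in 2 and Eya3 in none.

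**Figure D1:**
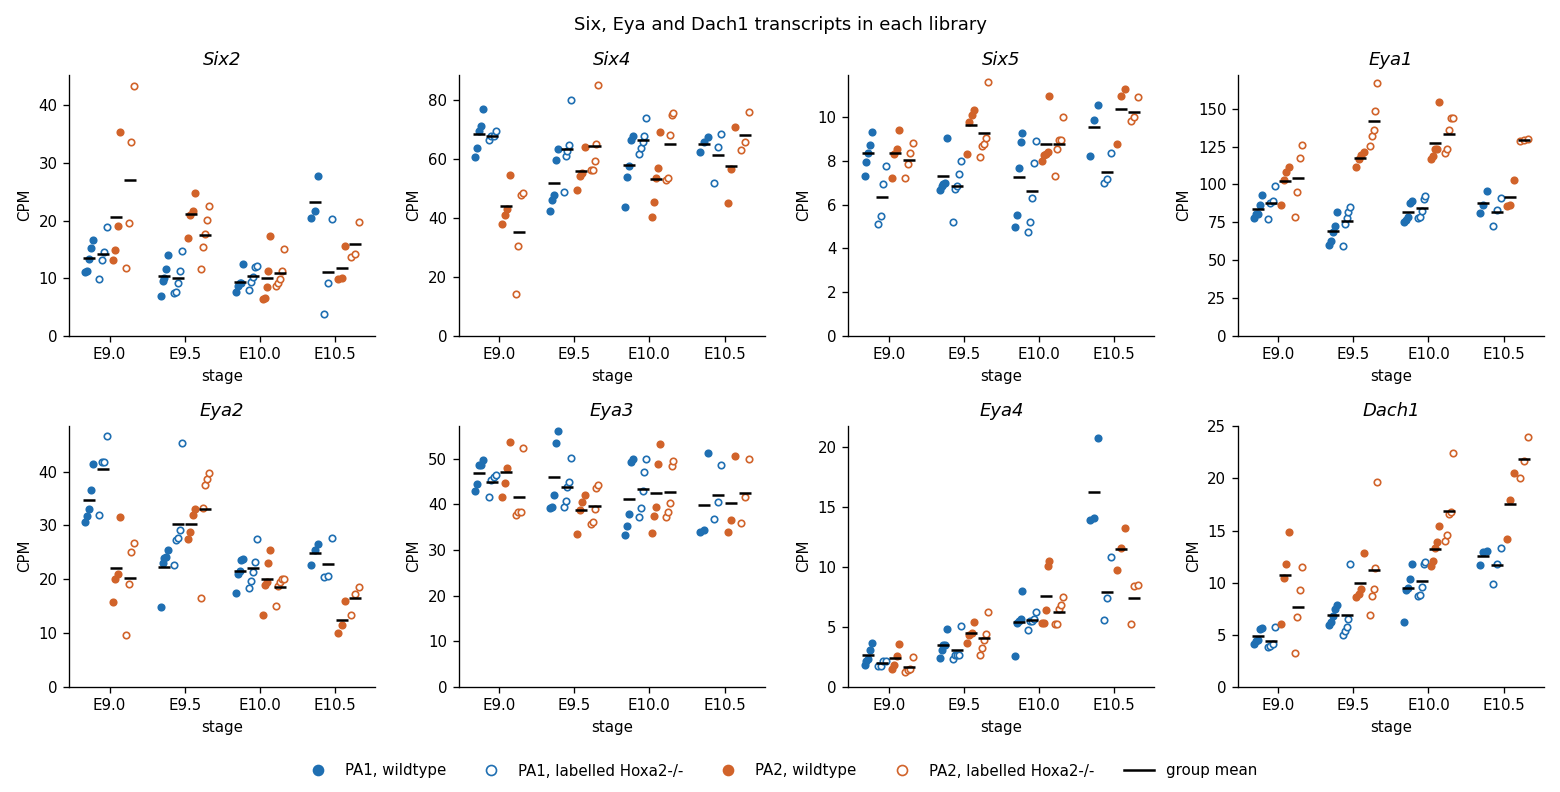
CPM of each member in each library (y axis, linear from 0) by stage (x axis), for PA1 (blue) and PA2 (orange), with filled points for wildtype, open points for libraries labelled Hoxa2-/- and a black line at each group mean. Eya1 separated the arches at E9.5 and E10.0, Eya4 and Dach1 climbed over the stages, and Eya3 stayed between 33.4 and 56.1 CPM.

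Eya1, the coactivator gene best known from the ear and pharynx, was called between the arches at most stages. It was higher in PA2 than in PA1 in wildtype at E9.0, E9.5 and E10.0, by 0.28 (SE 0.10, adjusted p = 0.046), 0.76 (SE 0.10, adjusted p = 1.6e-07) and 0.64 (SE 0.10, adjusted p = 2.9e-06). The embryos labelled Hoxa2-/- showed it at the 3 later stages, by 0.90 (adjusted p = 2.8e-10), 0.66 (adjusted p = 2e-06) and 0.65 (adjusted p = 0.00065). At E9.5 the wildtype PA2 libraries held 119.5, 121.5, 116.7 and 111.3 CPM and the PA1 libraries 62.7, 72.8, 68.7, 59.8 and 81.5 CPM. No PA1 library reached the lowest PA2 library, and all 4 embryos with both arches were higher in PA2. At E10.5 the wildtype arches no longer separated, with PA2 at 102.7, 86.7 and 85.5 CPM and PA1 at 81.1, 86.2 and 95.8 CPM, a difference of 0.06 (95% interval -0.19 to 0.31). In embryos labelled Hoxa2-/- at E10.5 PA2 stayed at 130.0, 128.6 and 129.1 CPM, above all 3 PA1 libraries at 72.3, 83.2 and 90.7 CPM. At E9.0 the wildtype arches overlapped, with PA2 from 86.2 CPM and PA1 up to 93.0 CPM, and 3 of 4 embryos were higher in PA2. The wildtype call at E9.0 was lost with the embryo as a block (difference 0.29, adjusted p = 0.056) and when any of 7 of its 9 libraries was left out. Without the PA2 library of replicate 2 it was 0.36 (adjusted p = 0.016) and without the libraries rich in yolk sac transcripts 0.28 (adjusted p = 0.076). The calls at E9.5 and E10.0 and the 3 in embryos labelled Hoxa2-/- kept adjusted p at or under 0.021 with any library left out, and without the PA2 library of replicate 4 labelled Hoxa2-/- the E9.5 difference was 0.84 (adjusted p = 6.4e-09). At E9.0 in embryos labelled Hoxa2-/- the difference was 0.22 (adjusted p = 0.13), and without the PA2 library of replicate 3 it was 0.35 (adjusted p = 0.016).

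Dach1 was also higher in PA2, with wider spread. In wildtype at E9.0 the PA2 libraries held 14.8, 5.99, 11.8 and 10.4 CPM and the PA1 libraries 5.59, 5.58, 4.10, 4.35 and 4.52 CPM, a difference of 0.96 (SE 0.22, adjusted p = 0.00086). Every PA2 library was above every PA1 library, the nearest being replicate 2 with its many red cell transcripts, and without that library the difference was 1.19 (adjusted p = 7.5e-05). At the other stages in wildtype it was 0.47, 0.47 and 0.44 and was not called (adjusted p = 0.099, 0.19 and 0.89), although all 12 embryos with both arches were higher in PA2. With the embryo as a block the E9.5 difference passed (0.50, adjusted p = 0.027). In embryos labelled Hoxa2-/- Dach1 was higher in PA2 at E9.0 (0.59, adjusted p = 0.049), E9.5 (0.62, adjusted p = 0.042) and E10.0 (0.67, adjusted p = 0.044), and at E10.5 it was 0.86 higher without being called (adjusted p = 0.10, and 0.013 with the embryo as a block). At E10.5 the PA2 libraries labelled Hoxa2-/- held 24.0, 20.0 and 21.7 CPM and those of PA1 9.87, 11.8 and 13.3 CPM, with no overlap. The 3 calls were narrow: each was lost when any of 6 or 7 of its libraries was left out. Without the PA2 library of replicate 4 the E9.5 difference was 0.41 (adjusted p = 0.19). Without the PA2 library of replicate 3 the E9.0 difference was 0.90 (adjusted p = 0.0022) and without that of replicate 4 it was 0.38 (adjusted p = 0.28). The E10.0 call was also lost without the libraries rich in yolk sac transcripts (0.69, adjusted p = 0.064). Fitted on the compared groups alone, neither E9.0 (adjusted p = 0.27) nor E9.5 (adjusted p = 0.22) passed.

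**Figure D2:**
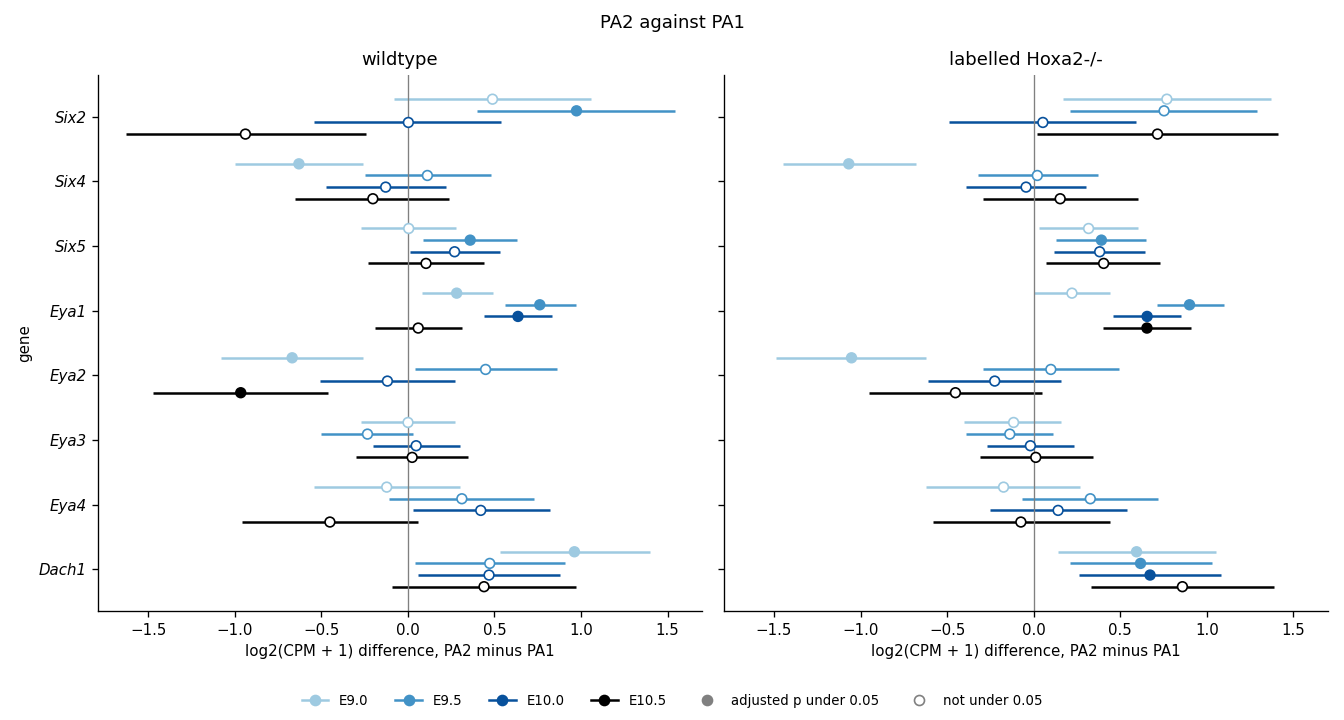
PA2 minus PA1 difference in log2(CPM + 1) for each member (points, with 95% intervals as lines; filled where the adjusted p is under 0.05) at 4 stages, in wildtype (left) and in embryos labelled Hoxa2-/- (right). Eya1 and Dach1 lie to the right of 0 at all 4 stages in both panels, Six4 and Eya2 lie to the left at E9.0, and Eya3 straddles 0.

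Six4 and Eya2 were lower in PA2 at E9.0, in both sets of embryos. Six4, a relative of Six2 in placodes and muscle precursors, was at 54.5, 40.9, 43.1 and 38.1 CPM in wildtype PA2 and at 69.6, 71.1, 76.8, 60.8 and 63.8 CPM in PA1. The difference of -0.63 (SE 0.18, adjusted p = 0.01) was -0.60 (adjusted p = 0.031) without the PA2 library of replicate 2. In embryos labelled Hoxa2-/- PA2 held 48.5, 47.7, 14.3 and 30.5 CPM and PA1 69.3, 67.7, 66.3 and 67.8 CPM, a difference of -1.07 (SE 0.19, adjusted p = 3.4e-05). All 8 embryos with both arches at E9.0 were lower in PA2, and the groups did not overlap in either set. Without the PA2 library of replicate 3, which held the lowest Six4 value of all 68 libraries, the second difference was -0.70 (adjusted p = 0.0013), and when the compared groups were fitted alone it was not called (adjusted p = 0.079). From E9.5 on Six4 differed between the arches by -0.20 to 0.15 and was not called.

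Eya2, a coactivator gene of placodes and muscle, was lower in PA2 at E9.0 and again at E10.5. Wildtype PA2 held 20.9, 15.7, 20.0 and 31.5 CPM at E9.0 against 31.8, 33.1, 30.6, 36.7 and 41.4 CPM in PA1 (difference -0.67, SE 0.21, adjusted p = 0.016). The embryos labelled Hoxa2-/- held 26.7, 25.0, 19.1 and 9.69 CPM in PA2 against 46.7, 41.8, 41.7 and 31.9 CPM (difference -1.05, SE 0.22, adjusted p = 0.00024). All 8 embryos were lower in PA2, although in wildtype 1 PA2 library, replicate 5, lay within the range of PA1. The wildtype call was lost without the PA2 library of replicate 2 (-0.53, adjusted p = 0.096), and the other when the compared groups were fitted alone (adjusted p = 0.052), while without the PA2 library of replicate 3 it was -1.06 (adjusted p = 0.00072). At E9.5 in wildtype all PA2 libraries, at 28.7, 27.5, 33.1 and 32.0 CPM, lay above those of PA1, at 14.8, 25.4, 24.1, 23.0 and 23.9 CPM. The difference of 0.45 was not called (adjusted p = 0.099) but passed with the embryo as a block (0.47, adjusted p = 0.024). At E10.5 wildtype PA2 was lower again, at 9.98, 16.01 and 11.4 CPM against 22.7, 26.5 and 25.5 CPM (difference -0.96, SE 0.25, adjusted p = 0.025), a call that was lost when any of 5 of the 6 libraries was left out (adjusted p up to 0.23). In embryos labelled Hoxa2-/- at E10.5 PA2 was below PA1 in all 3 embryos, by -0.45, without being called (adjusted p = 0.56).

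Six2, which marks undifferentiated mesenchyme of the arches and nephron progenitors, was called between the arches at 1 stage. It was higher in PA2 in wildtype at E9.5, at 17.0, 20.9, 24.7 and 21.7 CPM against 6.86, 14.1, 9.5, 11.6 and 10.0 CPM in PA1 (difference 0.97, SE 0.28, adjusted p = 0.0089). The groups did not overlap, and the call held with any library left out. At E10.0 the wildtype arches differed by 0.003, with a 95% interval of -0.54 to 0.54. At E10.5 the PA2 values lay below those of PA1, at 10.1, 15.5 and 9.81 CPM against 21.7, 27.7 and 20.4 CPM, without overlap and without a call (difference -0.94, adjusted p = 0.28, and 0.041 when the compared groups were fitted alone). In embryos labelled Hoxa2-/- Six2 was higher in PA2 by 0.77 at E9.0 (adjusted p = 0.053) and 0.75 at E9.5 (adjusted p = 0.063), neither called, and both passed with the embryo as a block (adjusted p = 0.016 and 0.017). At E10.5 the difference was 0.72 and was not called (adjusted p = 0.46). Without the PA2 library of replicate 3, which held the highest Six2 value of all libraries at 43.4 CPM, the E9.0 difference was 0.50 (adjusted p = 0.27), and without the PA2 library of replicate 4 the E9.5 difference was 0.88 (adjusted p = 0.029).

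Six5 was called between the arches at E9.5 alone, and Eya3 and Eya4 at no stage. Six5, a family member expressed in many tissues, was higher in PA2 at E9.5 in wildtype (9.63 ± 0.902 CPM, SD, n = 4, against 7.30 ± 0.992 CPM, SD, n = 5; difference 0.36, adjusted p = 0.042) and in embryos labelled Hoxa2-/- (9.26 ± 1.35 against 6.83 ± 1.03 CPM, SD, n = 5 each; difference 0.39, adjusted p = 0.04). All 9 embryos with both arches at E9.5 were higher in PA2, but each call was lost when any of 7 libraries was left out, and without the PA2 library of replicate 4 labelled Hoxa2-/- the second difference was 0.43 (adjusted p = 0.028). With the embryo as a block Six5 also passed in embryos labelled Hoxa2-/- at E9.0 (0.32, adjusted p = 0.025) and E10.0 (0.38, adjusted p = 0.012). At E10.5 under that label the arches did not overlap, PA2 being higher in 3 of 3 embryos. In wildtype the arches overlapped at all 4 stages, E9.5 included, with 3 of 4, 4 of 4, 4 of 5 and 3 of 3 embryos higher in PA2 in stage order. Eya4, whose loss in people causes deafness, differed by 0.31 to 0.42 at E9.5 and E10.0 in wildtype and was not called (with the embryo as a block, adjusted p = 0.029 and 0.037). At E10.5 its wildtype values went the other way, PA2 at 11.6, 13.3 and 9.76 CPM lying below PA1 at 13.9, 20.8 and 14.1 CPM in all 3 embryos, without a call (-0.45, adjusted p = 0.83). Eya3, the most evenly expressed member, differed by -0.23 to 0.05 in wildtype and by -0.14 to 0.01 in embryos labelled Hoxa2-/-, and was not called at any stage. With the embryo as a block its E9.5 wildtype difference of -0.26 passed (adjusted p = 0.0067), all 4 embryos being lower in PA2.

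Counted over stages, 9 of the 32 tests of PA2 against PA1 in wildtype and 9 of the 32 in embryos labelled Hoxa2-/- passed. By stage, 4, 3, 1 and 1 of the 8 members were called in wildtype, beside 18.7%, 26.3%, 5.94% and 1.52% of all genes tested, and 3, 3, 2 and 1 in embryos labelled Hoxa2-/-, beside 24.6%, 9.58%, 4.23% and 1.37%. The members' median difference was 0.003, 0.405, 0.159 and -0.088 in stage order in wildtype and 0.053, 0.359, 0.097 and 0.278 in embryos labelled Hoxa2-/-, beside -0.024 to 0.013 over all genes. With the embryo as a block the counts were 13 and 14, and when the compared groups were fitted alone the second count was 5. The counts over all genes moved too, at E9.0 in embryos labelled Hoxa2-/- from 4527 to 5902 with the block and to 1110 fitted alone, and at E9.5 from 1766 to 2922 and to 870.

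Over the stages, Eya4 and Dach1 rose in every arch and label. Eya4 in wildtype PA1 went from 2.35, 3.63, 1.84, 2.14 and 3.09 CPM at E9.0 to 13.9, 20.8 and 14.1 CPM at E10.5, a rise of 2.26 (SE 0.23, adjusted p = 6.5e-12). In wildtype PA2 it went from 1.80, 2.56, 1.49 and 3.57 CPM to 11.6, 13.3 and 9.76 CPM (1.93, SE 0.24, adjusted p = 2.5e-09). Among embryos labelled Hoxa2-/- it rose by 1.56 in PA1 (adjusted p = 7.1e-07) and 1.66 in PA2 (adjusted p = 1.5e-07). No E10.5 library overlapped an E9.0 library in any of the 4 comparisons. The intermediate stages lay between, at group means of 3.06 to 4.475 CPM at E9.5 and 5.41 to 7.54 CPM at E10.0, where wildtype libraries stood on the other side of the division from those of the other wildtype stages. Each of the 4 calls held with any library left out, and the rise in PA2 was 1.97 (adjusted p = 1.3e-08) without wildtype replicate 2 of E9.0 and 1.59 (adjusted p = 2.1e-06) without replicate 3 labelled Hoxa2-/-.

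Dach1 rose by 1.22 in wildtype PA1 (SE 0.24, adjusted p = 2.5e-05), from 4.83 ± 0.709 CPM (SD, n = 5) to 12.6 ± 0.726 CPM (SD, n = 3). It rose by 0.70 in wildtype PA2 (adjusted p = 0.02), from 10.8 ± 3.68 CPM (SD, n = 4) to 17.6 ± 3.19 CPM (SD, n = 3). Among embryos labelled Hoxa2-/- it rose by 1.24 in PA1 (adjusted p = 7.5e-05) and by 1.51 in PA2 (adjusted p = 2.5e-06), where E9.0 held 9.29, 6.74, 3.22 and 11.4 CPM and E10.5 held 24.0, 20.0 and 21.7 CPM. Wildtype PA2 was the single comparison in which the stages overlapped, and its call was lost without the PA2 E9.0 library of replicate 2 (0.47, adjusted p = 0.14) and without the E10.5 libraries of replicate 1 (0.59, adjusted p = 0.11) or replicate 2 (0.68, adjusted p = 0.062). Without the E9.0 library of replicate 3 the rise in PA2 labelled Hoxa2-/- was 1.20 (adjusted p = 8.9e-05). Over the same interval the summed surface and pouch epithelium markers (7 of 7, none at 0 in any library) went from 735.7 to 1089 CPM at E9.0 to 388.2 to 460.3 CPM at E10.5 in wildtype PA1. Mesenchyme sums went from 553 to 631.1 CPM to 653.1 to 761.9 CPM, although 2 of the 7 mesenchyme markers were higher and 3 lower, with a list median of -0.32. The part of this shift in the rises was not tested.

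**Figure D3:**
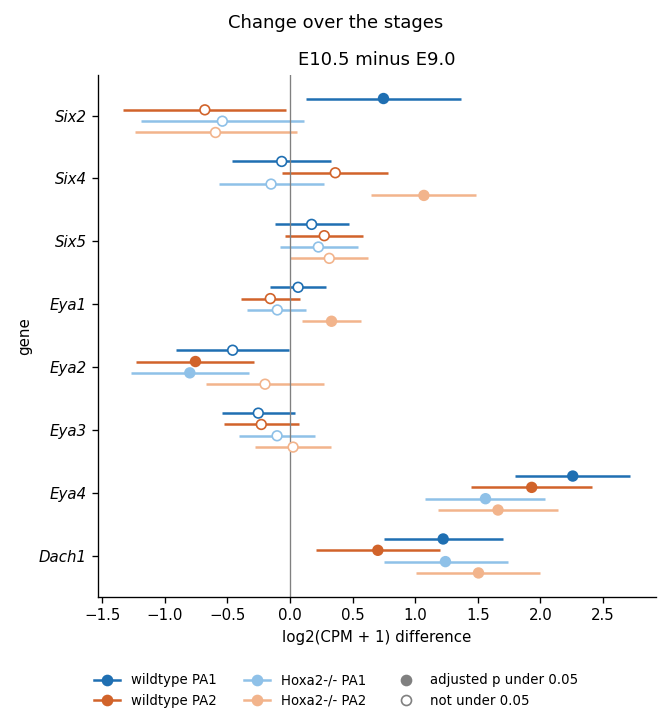
E10.5 minus E9.0 difference in log2(CPM + 1) for each member (points, with 95% intervals as lines; filled where the adjusted p is under 0.05) in wildtype PA1 and PA2 (dark blue, dark orange) and in PA1 and PA2 labelled Hoxa2-/- (light blue, light orange). Eya4 and Dach1 lie to the right of 0 in all 4 comparisons, and for Six4 the filled point is that of PA2 labelled Hoxa2-/-, whose interval overlaps that of wildtype PA2.

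Eya2 went the other way. It fell in wildtype PA2 by 0.76 on the log2 scale (adjusted p = 0.0086) and in PA1 labelled Hoxa2-/- by 0.80 (adjusted p = 0.0066), the latter from 46.7, 41.8, 41.7 and 31.9 CPM to 27.6, 20.4 and 20.6 CPM without overlap. The wildtype PA2 call was lost without the E9.0 library of replicate 5 (-0.58, adjusted p = 0.06) or the E10.5 library of replicate 1 (-0.62, adjusted p = 0.069), and without the E9.0 library of replicate 2 it was -0.90 (adjusted p = 0.0036). The differences in wildtype PA1 (-0.46, adjusted p = 0.094, and 0.0035 when the compared groups were fitted alone) and in PA2 labelled Hoxa2-/- (-0.20, adjusted p = 0.56) were not called. Six4 rose in PA2 labelled Hoxa2-/- by 1.07 (SE 0.21, adjusted p = 5.2e-05), from 35.2 ± 16.3 CPM (SD, n = 4) to 68.1 ± 6.80 CPM (SD, n = 3). Its change there exceeded that in PA1 of the same label by 1.22 (SE 0.30, adjusted p = 0.0066), and without the E9.0 library of replicate 3 that excess was 0.85 (adjusted p = 0.026) and the rise in PA2 was 0.70 (adjusted p = 0.0017). Fitted on the compared groups alone neither passed (adjusted p = 0.15 and 0.091). In wildtype PA2 Six4 differed by 0.36 (95% interval -0.06 to 0.78), the corresponding excess was 0.43 and was not called (adjusted p = 0.53). The PA2 changes of the 2 labels were not tested against each other. Six2 rose in wildtype PA1 by 0.75 (adjusted p = 0.046), from 11.1, 15.2, 11.3, 13.3 and 16.6 CPM to 21.7, 27.7 and 20.4 CPM. The call was lost when any of 6 of its 8 libraries was left out and without the libraries rich in yolk sac transcripts (0.67, adjusted p = 0.12). In wildtype PA2 it differed by -0.68 (adjusted p = 0.093). The change in PA2 less the change in PA1 came to -1.43 (SE 0.45, adjusted p = 0.061; with the embryo as a block -1.37, adjusted p = 0.024, and without the PA2 E9.0 library of replicate 2 -1.59, adjusted p = 0.032). Eya1 rose in PA2 labelled Hoxa2-/- by 0.33 (adjusted p = 0.025), which was 0.21 without the E9.0 library of replicate 3 (adjusted p = 0.20) and without all libraries rich in yolk sac transcripts (adjusted p = 0.22). The Eya1 call was lost when any of 5 of its 7 libraries was left out, and when the compared groups were fitted alone (adjusted p = 0.23). Eya3 and Six5 were not called in any of the 4 comparisons.

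In all, 13 of the 32 tests of E10.5 against E9.0 passed, 3 of 8 members in wildtype PA1, 3 in wildtype PA2, 3 in PA1 labelled Hoxa2-/- and 4 in PA2 labelled Hoxa2-/-, beside 42.5%, 36.9%, 31.2% and 30.9% of all genes. The members' shares were near this background. The difference of the change between the arches passed for 0 of 8 members in wildtype and 1 of 8 in embryos labelled Hoxa2-/-, beside 3.35% and 7.33% of all genes.

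Between labels, 3 tests of members passed, none of them at E10.0. At that stage, where the label does not coincide with the other division of the libraries, none of the 8 members was called in either arch, beside 0.0814% of all genes in PA2 and 0% in PA1, and no member had an unadjusted p under 0.05. In PA2 the 95% intervals of the difference, labelled Hoxa2-/- minus wildtype, were -0.37 to 0.71 for Six2, -0.05 to 0.64 for Six4, -0.26 to 0.25 for Six5, -0.13 to 0.26 for Eya1, -0.47 to 0.31 for Eya2, -0.23 to 0.27 for Eya3, -0.59 to 0.20 for Eya4 and -0.10 to 0.72 for Dach1. For Six2, the member known from other work as repressed by Hoxa2, PA2 at E10.0 held 11.2, 15.1, 9.14, 9.93 and 8.68 CPM in embryos labelled Hoxa2-/- and 8.42, 17.3, 6.55, 11.2 and 6.34 CPM in wildtype. The groups overlapped in most of their range. The interval of -0.37 to 0.71 holds 0 and also rises of up to 0.71 on the log2 scale. Whether Hoxa2 represses Six2 here was not tested. The Hoxa2 transcript was higher by 1.02 in the same libraries labelled Hoxa2-/- (limma adjusted p = 0.00011).

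**Figure D4:**
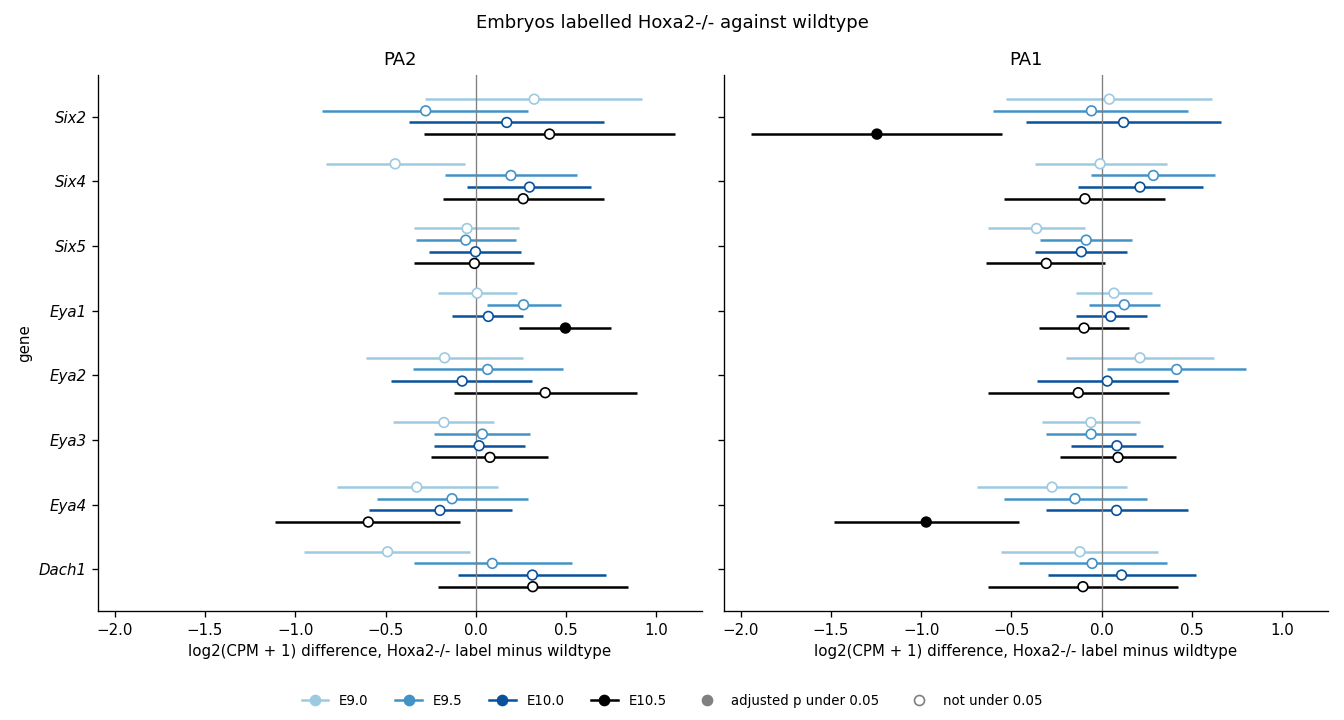
Difference in log2(CPM + 1) between embryos labelled Hoxa2-/- and wildtype embryos for each member (points, with 95% intervals as lines; filled where the adjusted p is under 0.05) at 4 stages, in PA2 (left) and PA1 (right). At E10.0 every interval spans 0 in both arches, and the filled points are Eya1 in PA2 and Six2 and Eya4 in PA1, all at E10.5.

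At the other stages, where label and division cannot be told apart, the 3 calls all lay at E10.5. In PA2 Eya1 was higher in embryos labelled Hoxa2-/-, at 130.0, 128.6 and 129.1 CPM against 102.7, 86.7 and 85.5 CPM, a difference of 0.50 (SE 0.13, adjusted p = 0.0059) that held with any library left out (adjusted p up to 0.037). The groups did not overlap, and they did not overlap at E9.5 either, where all 5 libraries labelled Hoxa2-/- (125.2 to 167.1 CPM) were above all 4 wildtype libraries (111.3 to 121.5 CPM) without a call (0.26, adjusted p = 0.13; without replicate 4 0.20, adjusted p = 0.31). In PA1 at E10.5, Six2 was lower in embryos labelled Hoxa2-/-, at 20.3, 9.21 and 3.81 CPM against 21.7, 27.7 and 20.4 CPM (difference -1.24, SE 0.35, adjusted p = 0.031). Eya4 was lower there too, at 10.8, 7.45 and 5.53 CPM against 13.9, 20.8 and 14.1 CPM (difference -0.97, SE 0.26, adjusted p = 0.021). Replicate 3 was the lowest library for both genes, and without it the differences were -0.71 (adjusted p = 0.43) and -0.77 (adjusted p = 0.19). The Six2 call was lost without any of 5 of its 6 libraries, and that of Eya4 also without wildtype replicate 2 (-0.79, adjusted p = 0.17) or replicate 2 labelled Hoxa2-/- (-0.95, adjusted p = 0.094). Neither call held when the compared groups were fitted alone (adjusted p = 0.14 and 0.051), and that of Six2 was lost with edgeR on the recovered read counts (-1.02, adjusted p = 0.11). In PA2 Eya4 was lower at E10.5 too, without overlap and without a call (-0.60, adjusted p = 0.13). At E9.0 in PA2 Dach1 (-0.49, adjusted p = 0.15) and Six4 (-0.45, adjusted p = 0.11) were not called. Dach1 passed without wildtype replicate 2 (-0.72, adjusted p = 0.037) or replicate 4 labelled Hoxa2-/- (-0.70, adjusted p = 0.046), and Six4 without replicate 1 or 2 labelled Hoxa2-/- (-0.64, adjusted p = 0.023 each).

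Over the 4 stages 1 of 32 tests between labels passed in PA2 and 2 of 32 in PA1. In PA2 the shares of all genes called at the other stages, from E9.0 on, were 14%, 4.48% and 10.3%, with 0, 0 and 1 of the 8 members, and in PA1 they were 2.08%, 23.6% and 3.05%, with 0, 0 and 2. The difference between labels in PA2 minus that in PA1, in which a division acting alike on both arches cancels, was called by limma for none of the members at any stage (0 of 32), beside 0%, 0.0109%, 0.0163% and 0.038% of all genes in stage order. The edgeR test and blocking on the embryo also called 0. The members with an unadjusted p under 0.05 were 2, both at E10.5: Six2 at 1.65 (SE 0.49, limma adjusted p = 0.66) and Eya1 at 0.59 (SE 0.18, limma adjusted p = 0.66).

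Other genes of the network were called between the arches as well. Of the other genes of the Pax, Dach and Six2 families listed, 8 of 10 were in the table and 6 passed the filter. In wildtype PA2 at E9.0, where 10.2% of all genes were higher and 8.53% lower, 3 of these 6 were higher (Pax8, Pax1 and Pax9, genes of the otic and pouch tissues, by 4.18, 2.17 and 1.85) and 1 lower (Dach2, the paralogue of Dach1, by -1.40, adjusted p = 5.1e-08), so that Dach2 and Dach1 had opposite signs. The median of the 6 was 1.00, beside -0.006 over all genes. Pax1 stayed higher in PA2 at E10.5, at 18.1 against 1.39 CPM in wildtype (3.00, adjusted p = 8.5e-10).

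Of the cofactors and corepressors of these proteins, 14 of 15 were tested. In wildtype at E9.0, 2 were higher and 3 lower in PA2, beside 10.2% and 8.53% of all genes. Among them were Tle2 (0.82, adjusted p = 0.0014), a Groucho corepressor, and Sall4 (-0.83, adjusted p = 0.0084), a zinc finger factor. Between E9.0 and E10.5 in wildtype PA2, Sall1 (-3.48, adjusted p = 1.2e-15) and Sall4 (-2.38, adjusted p = 1.8e-10) fell and Skil (0.85, adjusted p = 0.0045), a Ski relative, rose. In total 3 of 14 rose and 4 fell, beside 17.5% and 19.4% of all genes. The difference between labels in PA2 minus that in PA1 was called for Tle4 at E10.5 (1.08, adjusted p = 0.04) and for no other gene of this list at any stage. Ski itself was lower in PA2 labelled Hoxa2-/- at E9.5 by -2.23 (adjusted p = 1.6e-13), at a stage where the label coincides with the division in which Ski takes part.

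Of the genes reported by others to act downstream of the Six2 or Eya families, 20 of 21 were in the table and 18 were tested. In wildtype at E9.5, 8 were higher and 4 lower in PA2, beside 12.7% and 13.7% of all genes. Among them were Fgf3, a growth factor of the pouches, at 22.3 CPM against 0.11 CPM, a level under 3 reads (adjusted p = 9.5e-19), Tbx1, a T-box factor of the arches, at 61.5 against 22.4 CPM (1.46, adjusted p = 2.5e-05) and Myf5, a muscle determination factor (1.09, adjusted p = 9.2e-05). From E9.0 to E10.5, 2 rose and 11 fell in wildtype PA2, beside 17.5% and 19.4% of all genes, with the largest changes in Fgf3 (-3.72), Fgf8 (-2.59) and Tbx1 (-1.92). The list median was -0.74, beside -0.015 over all genes. Surface and pouch epithelium markers also fell in wildtype PA2, with 5 of 7 lower, 0 higher and a median of -1.393. Their sums ranged from 739.2 to 1127 CPM at E9.0 and from 344.1 to 405 CPM at E10.5. The part of this shift in the falls of the listed genes was not tested. At E10.0 none of the 18 was called between labels in either arch. Of all the listed genes, marker lists included, only Meox1, a somite factor, was called between labels at E10.0, lower in PA2 labelled Hoxa2-/- at 1.10 ± 0.395 CPM than in wildtype at 6.77 ± 4.80 CPM (SD, n = 5 each; -1.71, adjusted p = 0.0066).

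Across the 16 group means, the genes most like each member in their pattern were found among 11348 genes by Pearson r of log2(CPM + 1), given as a description without a test. For Eya1 they were Mfsd6 (0.935), Hspa2 (0.931) and Bcl2 (0.93), for Dach1 Nfic (0.948), Foxp1 (0.945) and Galnt16 (0.941), and for Eya4 Spaca6 (0.974), Slc25a27 (0.973) and Pygo1 (0.973). Six4 was most like Dcp1a (0.974), Gxylt1 (0.952) and Cep152 (0.949), and Eya2 most like Taf1a (0.919), Btbd3 (0.884) and Kctd12b (0.884). Six2 had weaker neighbours, led by Scara3 (0.849), and so had Eya3, led by the pseudogene Rps2-ps11 (0.856), whose reads can be shared with its parent gene. Six5 was most like Gpr45 (0.904). Among the members themselves the highest r was 0.751, between Eya4 and Dach1, and the lowest was -0.749, between Eya2 and Dach1. The group means share arch, stage and label, and the r of a pair holds all 3. They also lie on both sides of the division of the libraries described above, and an r can hold that too.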

How the data were processed

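Arch RNA was extracted with TRIzol, turned into cDNA with a SMART-seq v4 low-input kit and made into Nextera XT libraries, per the labels' protocols. The submitters' processing notes name bcl2fastq 2.18, TopHat2 2.1.1, R 3.3.2 and the build mm10. The counting tool, its annotation and its use of strand are not given in the sources used here. The authors deposited 1 table of a CPM-like signal, with totals of 926298 to 1051959 per library. Its values were whole multiples of 1 read in 100.0% of cases (tolerance 0.01 reads), so read counts were recovered from the deposited values. No molecular identifiers are described, so depth covers counting error only. Symbols were assigned to 21921 of 21948 identifiers, and gene positions came from GENCODE M21.

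A single limma model (limma 3.58.1, R 4.3.3; trended, moderated variance; two-sided) with 1 mean for each of 16 groups was fitted to log2(CPM + 1) over 18428 genes. The 26 comparisons were each adjusted over all genes, and p-values measure the spread between embryos. PA1 and PA2 of 33 of the 35 embryos could be paired, since the design text says that both arches came from a single embryo. Their deviations from the group means correlated with a median r of 0.35, over 0.1 in 30 of 33 pairs. Alternatives were other pseudocounts, filters and scaling, only the compared groups, the embryo as a block, edgeR 4.0.16 on recovered counts, and left-out libraries. The fitting steps were tested on simulated data. The members, gene lists and tests were chosen with earlier results of these data known. Named were all members, Hoxa2, up to 3 list genes per comparison, list genes passing at E10.0 or in the difference between arches, and the 3 genes most like each member. The summed level of 1 marker list, of another tissue than the arch mesenchyme, is not reported here.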

Additional observations from a re-analysis of the deposited data

Results flagged for a closer look

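In 11 of 96 sets of 4 or 5 libraries of 1 group, a member's highest or lowest value lay farther from the others than Dixon's 95% limit allows, where chance gives about 1 in 20. Six5 was high in wildtype PA1 at E9.5 in replicate 4 (9.06 CPM, others 6.67 to 6.97), in PA2 labelled Hoxa2-/- at E9.5 in replicate 2 (11.6 CPM, others 8.19 to 9.07) and in wildtype PA2 at E10.0 in replicate 1 (11.0 CPM, others 7.98 to 8.41). Eya1 was high in wildtype PA2 at E10.0 in replicate 2 (155.0 CPM, others 117.0 to 124.0). Eya2 was low in wildtype PA1 at E9.5 in replicate 1 (14.8 CPM, others 23.0 to 25.4), in PA2 labelled Hoxa2-/- at E9.5 in replicate 4 (16.5 CPM, others 33.2 to 39.7) and in PA2 labelled Hoxa2-/- at E10.0 in replicate 3 (14.9 CPM, others 18.6 to 19.9). It was high in PA1 labelled Hoxa2-/- at E9.5 in replicate 2 (45.2 CPM, others 22.6 to 29.1). Eya3 was high in PA2 labelled Hoxa2-/- at E9.0 in replicate 4 (52.4 CPM, others 37.7 to 38.4). In PA1 labelled Hoxa2-/- at E9.5, replicate 4 was high for both Eya4 (5.09 CPM, others 2.33 to 2.65) and Dach1 (11.7 CPM, others 4.93 to 6.47). PA2 of the same embryo was the highest of its group for both genes too, at 6.25 and 19.7 CPM, so these values came from 1 embryo in both arches.

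The change of Six4 from E9.0 to E10.5 differed between the arches in embryos labelled Hoxa2-/-, by 1.22 (adjusted p = 0.0066 with limma), PA2 rising by 1.07 and PA1 changing by -0.15. Leaving out single libraries gave 0.85 to 1.42.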

How the results depend on the processing

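No member changed direction while called under any alternative. Fitted on the compared groups alone, the count for PA2 against PA1 labelled Hoxa2-/- was 5 and that for the label in PA1 was 0, and with the embryo as a replicate block the first was 14. With edgeR on recovered reads the count for the label in PA1 was 1. The difference of the stage change between the arches had 2 calls with a pseudocount of 5, with the replicate block and with edgeR. Leaving out 1 library at a time gave 8 to 9 calls for PA2 against PA1 in wildtype, 7 to 10 in embryos labelled Hoxa2-/-, 1 to 2 for the label in PA2, 0 to 2 for the label in PA1, 0 throughout for its difference between the arches, 11 to 14 for E10.5 against E9.0 and 1 to 2 for the difference of that change. Of 208 single tests, the replicate block lost 1 call and gained 11, edgeR lost 1 and gained 2, fitting the compared groups alone lost 12 and gained 5, and leaving out the 6 libraries rich in yolk sac transcripts lost 4 and gained 1. The filters, pseudocounts and scaling each left at least 204 of the 208 tests on the same side of the threshold, and scaling moved the median of all genes by at most 0.022. The groups of E10.5, with 3 libraries each, limit the precision at that stage.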
